A study of Homo sapiens with 6 samples.

Results

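The p53 target genes described here are 33 genes that the transcription factor p53 is known to activate in human cells. They were chosen by name from the 18544 genes of a count table, with earlier results of these data known. All 33 had a row, and all passed the filter on low counts. They were measured by sequencing poly-A RNA from HMEC-1, a human dermal microvascular endothelial cell line grown in MCDB131 medium with 5.5 mM glucose. The cells carried a lentivirus with an shRNA against Set7, the protein of SETD7, in the group called Set7KD (n = 3), or with a non-targeting shRNA in the group called NTC (n = 3). No label tells how many shRNA sequences were used or whether replicates were transduced separately, and p-values therefore describe the spread among these 6 libraries, which may be technical. HMEC-1 was immortalised with the large T antigen of SV40, a viral protein that binds p53, and both groups share this background. How far p53 is active in these cells was not measured here.

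p53 is held at a low level by the ubiquitin ligase MDM2 and accumulates after DNA damage or other stress. It then activates genes that stop the cell cycle, repair DNA, start apoptosis or change metabolism, and it activates MDM2 itself, which closes a negative feedback loop. SETD7 is a lysine methyltransferase that has been reported to methylate p53 near its C-terminus. The comparison asks how the transcripts of these targets differ when SETD7 is knocked down.

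Levels are given in CPM, gene counts scaled to a common library total, where TMM scaling adjusts that total for differences in composition. Total gene counts ran from 16385878 to 16953331 per library, and the lowest count of any p53 target gene in any library was 73. SETD7 (ENSG00000145391.7) had 27.8, 43.8 and 26.7 CPM in Set7KD and 180.5, 178 and 176 CPM in NTC. The log2 fold change was -2.44 (standard error 0.21, edgeR adjusted p = 0.000927), and the groups did not overlap. Of 12 endothelial markers, 10 were tested, among them CDH5 and VWF, and their summed level was 566 to 601 CPM in Set7KD and 614 to 766 CPM in NTC; PECAM1 and CLDN5 were not analysed here. By edgeR 3 of the 10 rose, KDR, TEK and ENG, and 3 fell, CDH5, TIE1 and ROBO4. Of all genes tested, 17.6% rose and 18.6% fell. The median log2 fold change of the 10 was 0.15. With the replicate number as a block in the model, 3 rose and 4 fell, ERG being added to the lower genes. In that model 20.7% of all genes rose and 22.1% fell. The summed level of the 6 tested of 8 fibroblast markers was 3163 to 4130 CPM in Set7KD and 1458 to 2005 CPM in NTC, with COL1A1 the most abundant. Of the 6, 5 rose, 0 fell and LUM was not called (edgeR adjusted p = 0.22). The 2 tested of 5 lymphatic endothelial markers fell. The part of these cell type markers in the results was not tested.

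The p53 target genes were shifted towards lower levels in Set7KD. Because they and the lists set beside them were chosen with earlier results known, the shares given are descriptions and not tests. By the edgeR quasi-likelihood test, with adjusted p under 0.05 over 18482 genes, 17 of the 33 fell, which is 51.5%, where 18.6% of all genes tested fell. None rose, where 17.6% of all genes rose. At an unadjusted p under 0.05, 21 members were lower and 1 higher, where 4328 of 18482 genes were lower and 4072 higher. DESeq2 called 21 members lower and 2 higher, where it called 2688 of all genes lower and 2712 higher. By limma-voom 20 members were lower and 2 higher, where 3419 of all genes were lower and 3194 higher. In either direction edgeR called 36.2% of all genes. Against a minimum fold of 1.2, 7 of the 33 fell and 0 rose, where 7.11% of all genes fell and 4.89% rose. The median log2 fold change was -0.41 over the 33 genes and -0.01 over all genes tested, and the members ran from -1.12 for SPATA18 to 0.35 for SESN1. All Set7KD values were under all NTC values for 17 of the 33 genes, and for 24.1% of all genes. For each of these 17 the exact permutation p (two-sided) was 0.1, which is as low as 3 libraries against 3 can reach. For the remaining 16 genes the groups overlapped. In bulk RNA, fewer cells with a transcript and less of it per cell cannot be told apart.

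The libraries with the same replicate number moved together, and the edgeR model blocked on replicate number called 22 of the 33 genes lower and 2 higher, where it called 22.1% of all genes lower and 20.7% higher. All 17 genes that fell without the block also fell with it. The 5 added genes were CDKN1A, BTG2, CYFIP2, XPC and MDM2, and the 2 higher genes were SESN1 and TP53INP1. Without the block, leaving out a single library left between 11 and 23 of the 33 genes lower. The count was 11 without Set7KD replicate 1 and 11 without NTC replicate 1, where 13.7% and 13.8% of all genes were then lower, and 23 without NTC replicate 3, where 17.8% were. Without both replicate 1 libraries 4 fell and 0 rose, where 8.46% of all genes fell and 7.66% rose. Of the 17 genes that fell, 10 kept their call in all 6 fits that left out a single library.

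**Figure D1:**
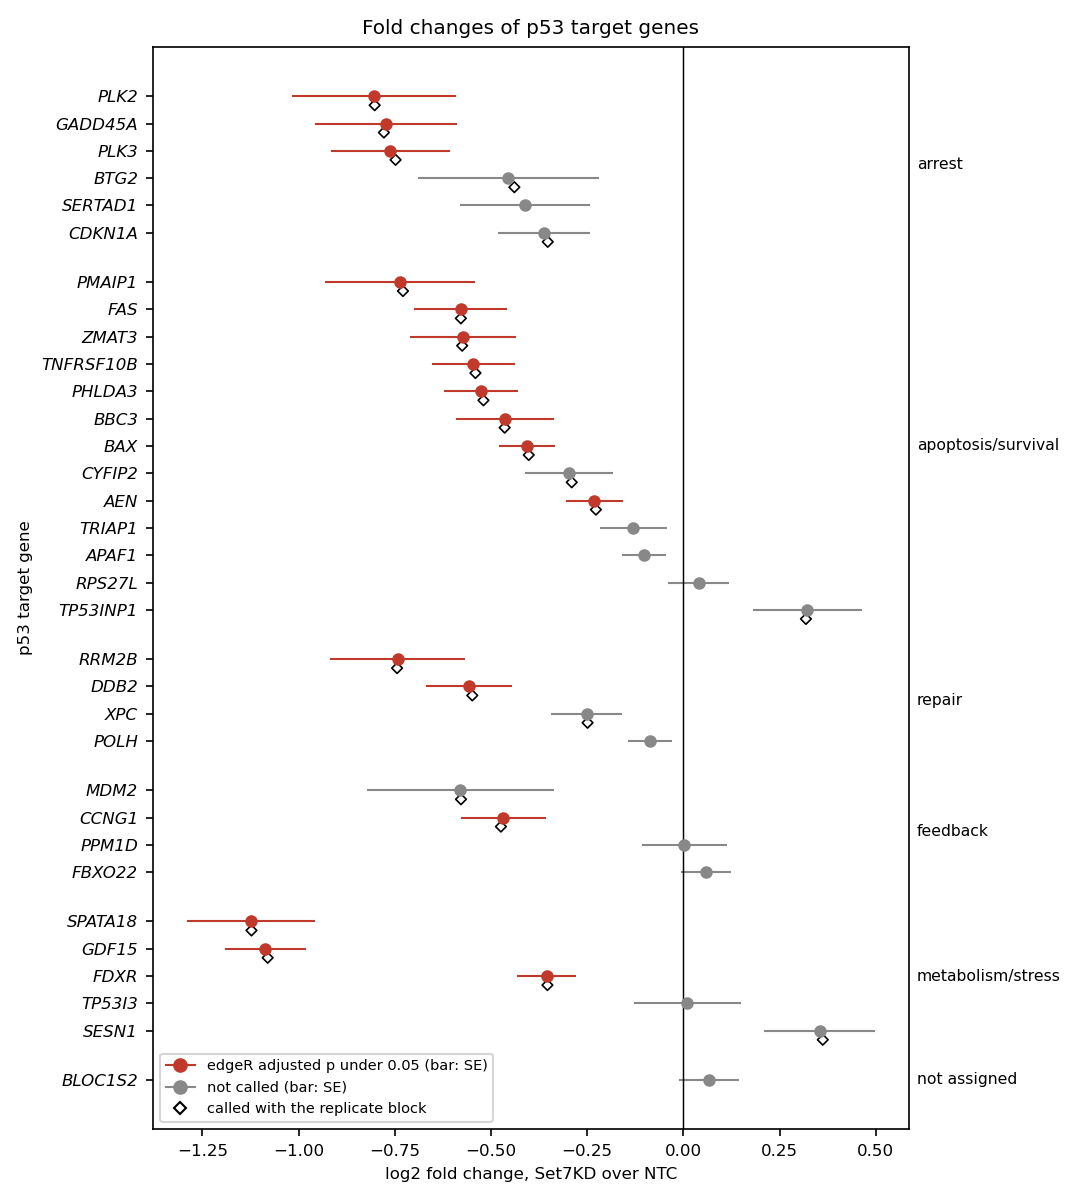
Log2 fold change of each p53 target gene, Set7KD over NTC, by role, with bars for the standard error. Red points are the 17 genes called lower by edgeR, grey points were not called, and open diamonds mark the 22 genes called lower and the 2 called higher with the replicate block.

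p53 binds DNA as a tetramer at pairs of a half-site of 10 bases. Promoter windows from 250 bases before to 50 bases after the transcription start were available from RefSeq (GRCh38.p14) for 27 of the 33 genes. The p53 half-site consensus was found, in any listed window, for 7 of the 27 genes, which is 25.9%, and for 8.06% of 27305 genes. Counted by window rather than by gene, 17.1% of 41 windows and 6.64% of 35097 windows held it. The consensus reads the same on both strands, so a single scan covers both. A pair of half-sites at most 13 bases apart was found for 1 of the 27 genes and for 0.037% of all genes. CATG, the core of some half-sites, was found in 51.9% of the 27 genes and in 60.6% of all genes. The GC box GGGCGG, on either strand, was found in 92.6% of the 27 and 48.3% of all. The 27305 genes were not limited to those tested in these cells, whereas all of the 27 were tested. The 27 were also chosen as known p53 targets, so these shares come from unlike sets of genes. The 7 genes are shown with 30 bases around the match, because they are the ones among the 27 scanned in which the consensus lies in a window; capitals mark the half-sites.
PLK2: tggcgggacaAGACTTGCTTcccggccacg
SESN1: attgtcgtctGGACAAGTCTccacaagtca
FAS: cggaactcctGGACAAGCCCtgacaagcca
DDB2: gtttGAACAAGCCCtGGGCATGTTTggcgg
RPS27L: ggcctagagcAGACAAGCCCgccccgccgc
AEN: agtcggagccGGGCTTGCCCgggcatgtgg
FDXR: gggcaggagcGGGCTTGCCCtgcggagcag

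The windows lie at chr5:58460199-58460228 for PLK2, chr6:109009018-109009047 for SESN1, chr15:63157517-63157546 for RPS27L and chr17:74872986-74873015 for FDXR on the minus strand. Those on the plus strand lie at chr10:88991299-88991328 for FAS, chr11:47214975-47215004 for DDB2 and chr15:88621296-88621325 for AEN. DDB2 held the pair, with 1 base between the half-sites, beginning 5 bases after 1 of its 2 listed starts. The half-site began 132 bases before the start in PLK2, 122 in FAS, 59 in RPS27L, 49 in SESN1, 34 in AEN and 11 in FDXR, counted from 1 of 3 listed starts for FAS and SESN1 and from 1 of 2 for FDXR. Of these 7 genes PLK2, FAS, DDB2, AEN and FDXR fell in Set7KD, SESN1 was called higher with the replicate block, and RPS27L was not called. A match is a description of the letters and not a measurement of p53 binding.

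Among the 6 genes placed under cell cycle arrest, 3 fell and all had a log2 fold change below 0. The roles, that of SERTAD1 included, were assigned and not tested in these cells. GADD45A, a stress sensor that slows the cell cycle, had 88.6, 108 and 73.4 CPM in Set7KD and 169, 163 and 128 CPM in NTC. The groups did not overlap, and the log2 fold change was -0.77 (standard error 0.18, edgeR adjusted p = 0.0296). PLK2, a polo-like kinase of the stress response, had 262, 304 and 212 CPM in Set7KD and 489.6, 515 and 355 CPM in NTC. Every Set7KD library was below every NTC library, at a log2 fold change of -0.80 (standard error 0.21, edgeR adjusted p = 0.0451). PLK3, a related kinase, had 14.6, 13.2 and 13.9 CPM in Set7KD and 25.4, 27.9 and 17.6 CPM in NTC. The 3 Set7KD values lay close together below a wide NTC range, with a log2 fold change of -0.76 (standard error 0.16, edgeR adjusted p = 0.00371).

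CDKN1A (ENSG00000124762.7), which encodes the cyclin-dependent kinase inhibitor p21 and is the best known arrest target of p53, had 698, 767 and 649 CPM in Set7KD and 975, 998 and 742 CPM in NTC. NTC replicate 3 lay below Set7KD replicate 2, so the groups overlapped by a single pair of libraries. Its log2 fold change of -0.36 (standard error 0.12) missed the threshold (edgeR adjusted p = 0.0514) and passed it with the replicate block (adjusted p = 6.73e-05). Without NTC replicate 3 its edgeR adjusted p was 9.34e-05. With any other single library left out CDKN1A was not called, and the edgeR adjusted p reached 0.144. BTG2, an antiproliferative factor that promotes the decay of messenger RNAs, had 54.5, 67.8 and 53.04 CPM in Set7KD and 85.1, 97.3 and 58.0 CPM in NTC. It was not called (edgeR adjusted p = 0.212; 0.00291 with the replicate block). SERTAD1, a CDK4-binding protein (edgeR adjusted p = 0.0907), had 16.7, 15.02 and 16.2 CPM in Set7KD and 21.6, 26.5 and 15.7 CPM in NTC. NTC replicate 3 was the lowest NTC library for both genes, and leaving it out raises the NTC mean by construction. Both were then called by edgeR, with an adjusted p of 0.00065 for BTG2 and 0.000643 for SERTAD1. Neither was called with any other single library left out, and the edgeR adjusted p reached 0.416 for BTG2 and 0.265 for SERTAD1.

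The calls of GADD45A and PLK2 depended on single libraries. For GADD45A the edgeR adjusted p reached 0.095 when Set7KD replicate 1, NTC replicate 1 or NTC replicate 2 was left out. For PLK2 it reached 0.123, and the call was lost without any one library other than NTC replicate 3. Immediate early genes, which respond to a stimulus within minutes, were examined beside these genes. Their summed level over 27 tested genes was 5015 to 7348 CPM in Set7KD and 7534 to 12491 CPM in NTC. Of the 27 genes, 5 fell by edgeR, which is 18.5% and close to the 18.6% of all genes that fell. None rose in this fit, nor at an unadjusted p under 0.05, and the median log2 fold change was -1.01. The count of calls depended on the fit. With the replicate block 24 fell and none rose, where 22.1% of all genes fell. By DESeq2 17 fell, where 2688 of all genes fell, and by limma-voom 19 fell, where 3419 of all genes fell. With a single library left out between 1 and 16 fell, where 13.7 to 17.8% of all genes were lower. There was 1 lower gene without Set7KD replicate 1, NTC replicate 1 or NTC replicate 2, and 16 without NTC replicate 3. JUN, a subunit of the AP-1 transcription factor, averaged 244 ± 33.8 CPM in Set7KD and 573 ± 137 CPM in NTC (SD, n = 3 each; edgeR adjusted p = 0.0186), a call that was kept only when NTC replicate 3 was the library left out. JUND, also of AP-1, had 74.9, 64.5 and 64.5 CPM in Set7KD and 109, 105 and 92.7 CPM in NTC (edgeR adjusted p = 3.23e-05). PLK2, PLK3 and BTG2 are themselves known to be induced by growth stimuli, and the part of the immediate early response in their values was not tested.

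**Figure D2:**
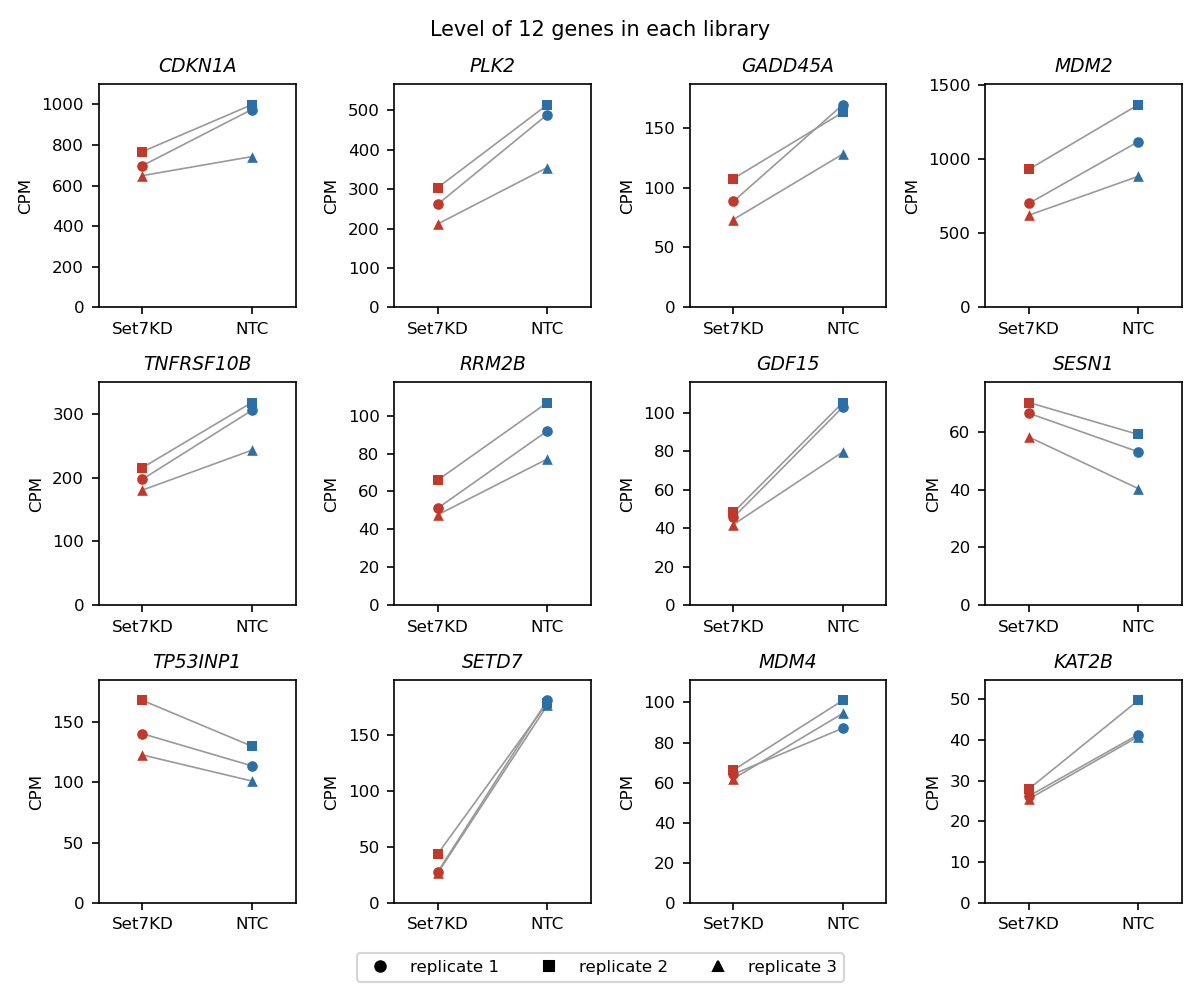
CPM of 12 genes in each library, with Set7KD left of NTC and grey lines joining libraries with the same replicate number. Every line has its lower end at Set7KD for CDKN1A, PLK2, GADD45A, MDM2, TNFRSF10B, RRM2B, GDF15, SETD7, MDM4 and KAT2B, and its higher end at Set7KD for SESN1 and TP53INP1.

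The apoptosis and survival group had 13 members, of which 8 fell. They belonged to the mitochondrial and the death receptor branch and to other steps. In the mitochondrial branch BAX, which permeabilises the outer membrane, had 89.7, 88.4 and 91.9 CPM in Set7KD and 128, 127 and 104 CPM in NTC. The Set7KD libraries were nearly level and all below NTC, with a log2 fold change of -0.41 (standard error 0.07, edgeR adjusted p = 0.000572). BBC3, which encodes the BH3-only protein PUMA, had 11.8, 13.8 and 10.2 CPM in Set7KD and 17.4, 18.1 and 13.9 CPM in NTC. PMAIP1, which encodes the BH3-only protein NOXA, had 51.9, 64.7 and 49.4 CPM in Set7KD and 96.1, 108 and 71.9 CPM in NTC. Neither gene overlapped between the groups, although Set7KD replicate 2 came close to NTC replicate 3 for BBC3. The log2 fold changes were -0.46 for BBC3 (edgeR adjusted p = 0.0104) and -0.74 for PMAIP1 (edgeR adjusted p = 0.0393). APAF1, the scaffold of the apoptosome, had 65.5, 66.6 and 64.1 CPM in Set7KD and 68.0, 73.6 and 68.9 CPM in NTC. Its groups did not overlap either, but the difference was small and was not called, with a log2 fold change of -0.10 (edgeR adjusted p = 0.185).

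In the death receptor branch FAS, the receptor for FAS ligand, had 17.6, 20.8 and 16.0 CPM in Set7KD and 28.4, 30.3 and 22.6 CPM in NTC. The log2 fold change was -0.58 (standard error 0.12, edgeR adjusted p = 0.00219). TNFRSF10B, a receptor for the ligand TRAIL, had 197, 215 and 180.3 CPM in Set7KD and 305, 318 and 243 CPM in NTC. The log2 fold change was -0.55 (standard error 0.11, edgeR adjusted p = 0.00554). For both receptors every Set7KD library was below every NTC library, and both calls held with any single library left out.

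PHLDA3, an inhibitor of the survival kinase AKT, had 27.2, 27.6 and 26.5 CPM in Set7KD and 44.0, 40.2 and 32.7 CPM in NTC. Its log2 fold change was -0.53 (standard error 0.10, edgeR adjusted p = 0.000644), and the groups did not overlap. ZMAT3, an RNA-binding protein, had 54.6, 68.7 and 51.3 CPM in Set7KD and 84.6, 99.1 and 75.9 CPM in NTC (log2 fold change -0.57, edgeR adjusted p = 0.0183). AEN, a nuclease that acts in apoptosis, had 84.3, 88.9 and 89.7 CPM in Set7KD and 111, 109 and 89.4 CPM in NTC. It was called lower at a log2 fold change of -0.23 (edgeR adjusted p = 0.0242), although NTC replicate 3 overlapped the Set7KD range. Of the apoptosis calls, 4 were lost when a library was left out, and the edgeR adjusted p then reached 0.0549 for BBC3, 0.117 for PMAIP1, 0.128 for AEN and 0.0667 for ZMAT3. The libraries concerned were NTC replicate 1 for BBC3, PMAIP1 and AEN, Set7KD replicate 1 for PMAIP1, AEN and ZMAT3, Set7KD replicate 3 for BBC3 and PMAIP1, and NTC replicate 2 for AEN.

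The other members of this group were not called. CYFIP2, a subunit of the actin-regulating WAVE complex, had 54.9, 56.4 and 49.6 CPM in Set7KD and 69.5, 74.6 and 53.8 CPM in NTC. Its edgeR adjusted p was 0.0707 without the replicate block and 0.0012 with it. Without NTC replicate 3 it was 0.000375. With any other single library left out CYFIP2 was not called, and the edgeR adjusted p reached 0.195. TRIAP1, which inhibits apoptosis, averaged 52.7 ± 3.90 CPM in Set7KD and 57.7 ± 7.24 CPM in NTC (SD, n = 3 each); its edgeR adjusted p was 0.265, and of the 6 fits that left out a library only that without NTC replicate 3 called it lower (adjusted p = 0.0428). RPS27L, which encodes a ribosomal protein paralogue, averaged 80.5 ± 3.72 CPM in Set7KD and 78.3 ± 9.76 CPM in NTC (SD, n = 3 each; edgeR adjusted p = 0.726). TP53INP1, which takes part in autophagy and cell death, ran the other way, with 140.5, 168 and 123 CPM in Set7KD and 114, 130.2 and 101.2 CPM in NTC. It was higher in Set7KD in each of the 3 pairs of libraries with the same number, at 121 to 129% of the NTC value. Its log2 fold change of 0.32 was not called (edgeR adjusted p = 0.135) but passed with the replicate block (adjusted p = 3.71e-05) and without Set7KD replicate 3 (edgeR adjusted p = 0.0255). With any other single library left out TP53INP1 was not called, and the edgeR adjusted p reached 0.257.

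Of the 4 genes of DNA repair and nucleotide supply, 2 fell and the other 2 had log2 fold changes below 0. DDB2, which recognises ultraviolet damage for nucleotide excision repair, had 59.5, 64.0 and 57.4 CPM in Set7KD and 94.4, 99.5 and 72.3 CPM in NTC. The groups did not overlap, and the log2 fold change was -0.56 (standard error 0.11, edgeR adjusted p = 0.00501). RRM2B, a subunit of ribonucleotide reductase that supplies nucleotides outside S phase, had 51.2, 66.1 and 47.7 CPM in Set7KD and 92.0, 107 and 77.2 CPM in NTC. The log2 fold change was -0.74 (standard error 0.17, edgeR adjusted p = 0.0235), and the adjusted p reached 0.0793 without Set7KD replicate 1, Set7KD replicate 3 or NTC replicate 1. XPC, a damage sensor of nucleotide excision repair, had 109.8, 119.7 and 99.9 CPM in Set7KD and 131, 147 and 115 CPM in NTC. It missed the threshold (edgeR adjusted p = 0.0592) and passed with the replicate block (adjusted p = 0.000368), without NTC replicate 3 or without Set7KD replicate 2. With any other single library left out XPC was not called, and the edgeR adjusted p reached 0.163. An antisense gene covered 23.8% of the exonic bases of XPC in GENCODE 29, at a level of 8.41 to 11.02 CPM. LSM3, also antisense, covered 6.63% at 48.7 to 61.0 CPM. Without strand the reads cannot be told apart. In all, 11 of the 33 genes shared exonic bases with another gene of the table, and after XPC the next share was 19.1%, between PHLDA3 and a gene at 1.70 to 3.37 CPM. POLH, a polymerase that copies past damaged bases, averaged 80.9 ± 3.12 CPM in Set7KD and 86.0 ± 3.41 CPM in NTC (SD, n = 3 each) and was not called (edgeR adjusted p = 0.248).

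Of the 4 genes that feed back on p53, 1 fell and 3 were not called. CCNG1, a cyclin that recruits a phosphatase to MDM2, had 199.6, 243 and 182 CPM in Set7KD and 291, 311 and 262 CPM in NTC. The groups did not overlap, and the log2 fold change was -0.47 (standard error 0.11, edgeR adjusted p = 0.0133). MDM2 (ENSG00000135679.16) had 701, 931 and 621 CPM in Set7KD and 1117, 1366 and 883 CPM in NTC. Replicate 2 was the highest library and replicate 3 the lowest in both groups, so that Set7KD replicate 2 stood above NTC replicate 3. Its log2 fold change of -0.58 (standard error 0.24) was not called (edgeR adjusted p = 0.143). Within the pairs Set7KD held 62.7, 68.1 and 70.3% of the NTC value of the same number, and with the replicate block MDM2 was lower (adjusted p = 1.04e-07). Unnamed genes shared exonic bases with MDM2 on both strands, and RP11-611O2.5, at 119.8, 154.8 and 111 CPM in Set7KD and 189, 227 and 148 CPM in NTC, had its libraries in the same order; without strand, their reads cannot be told apart. PPM1D, the phosphatase WIP1 that switches off p53, averaged 59.4 ± 5.42 CPM in Set7KD and 59.3 ± 9.23 CPM in NTC (SD, n = 3 each). FBXO22, a substrate receptor of a ubiquitin ligase, averaged 72.0 ± 3.87 CPM in Set7KD and 69.2 ± 4.59 CPM in NTC (SD, n = 3 each). The edgeR adjusted p was 0.989 for PPM1D and 0.518 for FBXO22.

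The group of metabolism, redox, mitochondria and secreted stress signals held the largest falls and the highest fold change of the 33 genes. SPATA18 (ENSG00000163071.6), a regulator of mitochondrial quality control, had 5.32, 6.43 and 4.47 CPM in Set7KD and 11.1, 14.5 and 9.77 CPM in NTC. Its log2 fold change was -1.12 (standard error 0.17, edgeR adjusted p = 0.000156). GDF15 (ENSG00000130513.3), a secreted cytokine of cellular stress, had 45.5, 48.1 and 41.8 CPM in Set7KD and 103, 105 and 79.6 CPM in NTC. The log2 fold change was -1.09 (standard error 0.11, edgeR adjusted p = 4.9e-05). In both genes every Set7KD library held less than every NTC library, and within pairs Set7KD held 44.3 to 47.9% of NTC for SPATA18 and 44.2 to 52.6% for GDF15. FDXR, the mitochondrial ferredoxin reductase, had 57.5, 61.6 and 54.2 CPM in Set7KD and 79.1, 77.4 and 65.2 CPM in NTC (log2 fold change -0.36, edgeR adjusted p = 0.00204). TP53I3, a quinone oxidoreductase, had 132, 144 and 119 CPM in Set7KD and 139, 148 and 106 CPM in NTC, and the groups overlapped almost fully (edgeR adjusted p = 0.963).

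SESN1, a sestrin that restrains the growth kinase complex mTORC1, had 66.6, 70.3 and 58.4 CPM in Set7KD and 53.2, 59.3 and 40.4 CPM in NTC. Only NTC replicate 2 reached into the Set7KD range, and Set7KD held 119 to 144% of the NTC library with the same number. Its log2 fold change of 0.35 was not called (edgeR adjusted p = 0.101) but passed with the replicate block (adjusted p = 0.000192) and without NTC replicate 2 (edgeR adjusted p = 0.0116). With any other single library left out SESN1 was not called, and the edgeR adjusted p reached 0.278. BLOC1S2, a subunit of a complex of lysosome biogenesis, averaged 44.1 ± 2.29 CPM in Set7KD and 42.1 ± 4.14 CPM in NTC (SD, n = 3 each) and was not called (edgeR adjusted p = 0.535).

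The p53 target genes also varied in step among libraries of the same group. Replicate 3 was the lowest NTC library for 31 of the 33 genes, where this held for 37.4% of all genes tested, and the lowest Set7KD library for 28, where this held for 33.6%. Replicate 2 was the highest NTC library for 27 of the 33 genes and the highest Set7KD library for 28, against 36.4% and 38.5% of all genes. Replicate 2 highest and replicate 3 lowest in both groups was found for 23 of the 33 genes, which is 69.7%, and for 6.94% of all genes. The median p53 target gene stood at 75.2, 83.9 and 71.7% of its NTC mean in Set7KD and at 104, 112 and 83.9% in NTC. The lowest NTC library was thus at the level of the highest Set7KD library. The median of the 27 immediate early genes followed the same order of libraries. It stood at 54.4, 62.9 and 37.6% of the NTC mean in Set7KD and at 110, 125 and 69.8% in NTC. This order was therefore not particular to the p53 target genes. Compared within pairs of the same number, 24 of the 33 genes were lower in Set7KD in all 3 pairs, where this held for 6094 of 18482 genes. SESN1, TP53INP1 and BLOC1S2 were higher in all 3 pairs, as were 31.3% of all genes. No label says what a replicate number stands for.

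**Figure D3:**
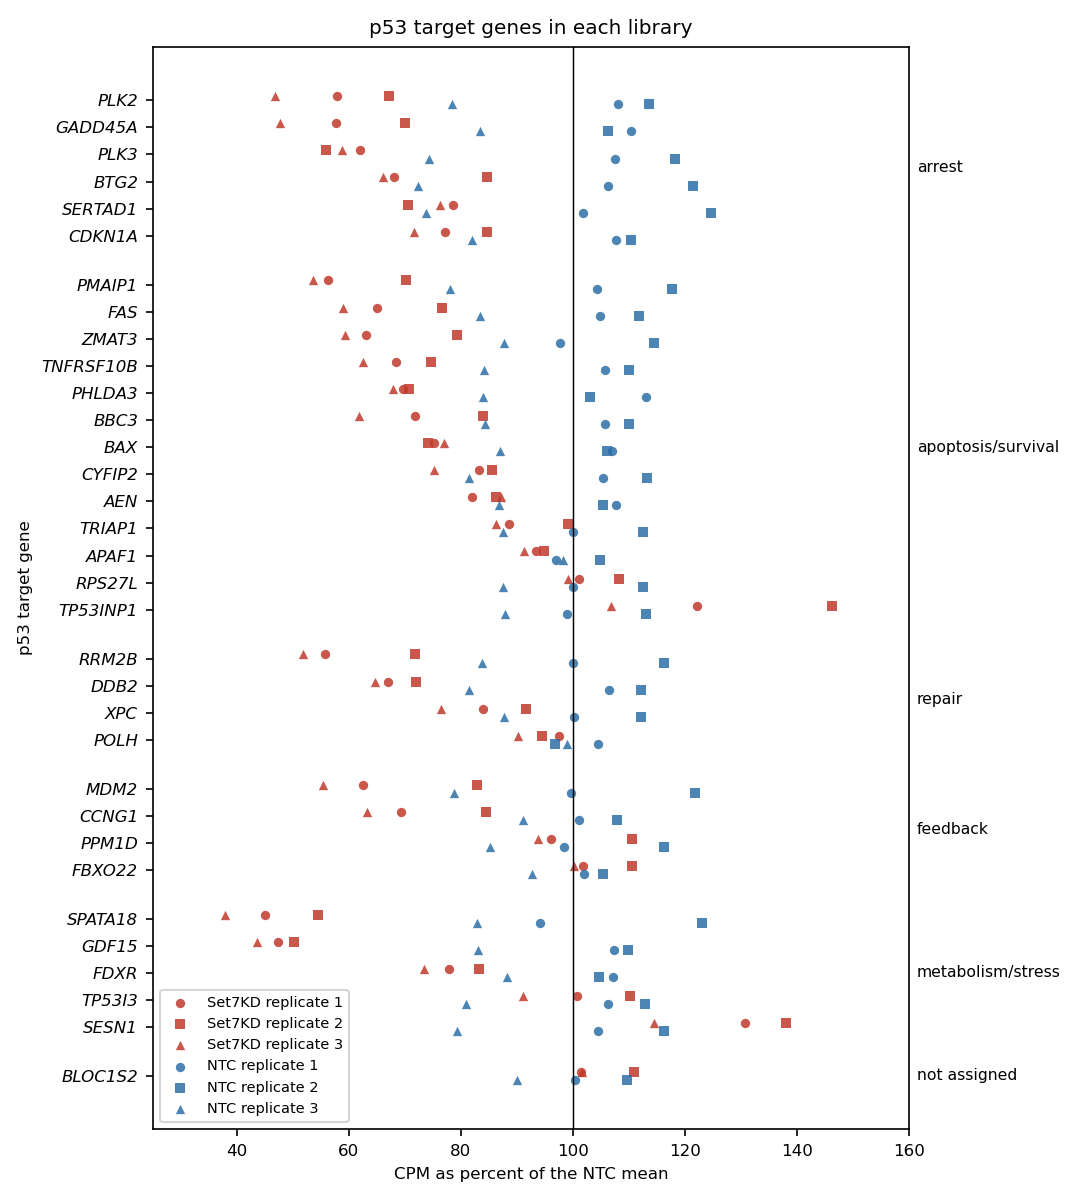
CPM of each p53 target gene in each library as a percent of its NTC mean, by role, with Set7KD in red and NTC in blue and 1 symbol per replicate number. The triangles of replicate 3 lie leftmost among the blue points for 31 of the 33 genes, and GDF15 and SPATA18 show the widest gaps between the groups.

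Relatives of p53 and proteins that regulate its activity were also counted. Of 30 tested genes of this list, 7 fell, which is 23.3% beside the 18.6% of all genes, and 3 rose, which is 10% beside 17.6%. SETD7, the target of the shRNA, is counted among the 7, and its fall was set by the design. The median log2 fold change of the list was -0.05. With the replicate block 8 fell and 4 rose, where 22.1% of all genes fell and 20.7% rose. CREBBP was added to the lower and USP7 to the higher genes. MDM4, a relative of MDM2 that inhibits p53, had 64.2, 66.3 and 62.0 CPM in Set7KD and 87.1, 101.04 and 94.5 CPM in NTC. The log2 fold change was -0.55 (standard error 0.06, edgeR adjusted p = 9.12e-06), and the groups did not overlap. KAT2B, an acetyltransferase that acts on p53, fell at a log2 fold change of -0.73 (edgeR adjusted p = 1.12e-05). PPP1R13L, an inhibitor of p53, fell at -0.48 (edgeR adjusted p = 3.98e-05). PRMT5, an arginine methyltransferase that acts on p53, rose at 0.41 (edgeR adjusted p = 8.83e-05).

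Other genes that p53 is known to activate, outside the 33, were split. Of 56 tested, 21 fell, which is 37.5% beside the 18.6% of all genes, and 9 rose, which is 16.1% beside 17.6%. The median log2 fold change was -0.17. With the replicate block 30 fell and 9 rose, where 22.1% of all genes fell and 20.7% rose. The 9 that rose with the block are not the same 9 genes. ORAI3, a calcium channel subunit, had 10.1, 10.7 and 10.7 CPM in Set7KD and 23.2, 26.4 and 20.6 CPM in NTC (edgeR adjusted p = 1e-06). EPHA2, an ephrin receptor, fell at a log2 fold change of -0.51 (edgeR adjusted p = 2e-05). SFN, which encodes the arrest protein 14-3-3 sigma, fell at a log2 fold change of -1.75 (edgeR adjusted p = 3.09e-05), from a low level of at most 4.46 CPM in any library. KITLG, the ligand of the receptor KIT, rose at a log2 fold change of 0.45 (edgeR adjusted p = 0.000113). The highest log2 fold changes of this list reported here belonged to IGFBP3 at 1.90 and THBS1 at 1.09, which were picked out after their values were seen. Both were called higher by edgeR (adjusted p = 0.0223 for IGFBP3 and 0.00249 for THBS1) and lost the call with the replicate block (adjusted p = 0.0839 for IGFBP3 and 0.0559 for THBS1).

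Cell cycle genes that p53 is known to repress through p21 and the DREAM complex had a median log2 fold change of 0.01. Of 40 tested, 5 rose, which is 12.5% beside the 17.6% of all genes, and 7 fell, which is 17.5% beside 18.6%, so neither share was above that of all genes. With the replicate block 8 rose and 10 fell, where 20.7% of all genes rose and 22.1% fell. MAD2L1, a spindle checkpoint protein, had 34.5, 39.9 and 37.1 CPM in Set7KD and 50.8, 50.4 and 55.6 CPM in NTC (edgeR adjusted p = 8.41e-05). TYMS, thymidylate synthase, fell at a log2 fold change of -0.35 (edgeR adjusted p = 0.000837). CDC25A, a phosphatase that activates cyclin-dependent kinases, rose at 0.41 (edgeR adjusted p = 0.000226), and RRM2, the S phase subunit of ribonucleotide reductase, at 0.26 (edgeR adjusted p = 0.00136). The summed level of these genes was 9539 to 9703 CPM in Set7KD and 9443 to 9836 CPM in NTC. HMEC-1 was immortalised with the large T antigen of SV40, and the part of that protein in these values was not tested.

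Some p53 targets, GDF15 and PMAIP1 among them, are also known to respond to ATF4, the transcription factor of the integrated stress response. Of 15 tested genes of the ATF4 and CHOP response, 7 fell, which is 46.7% beside the 18.6% of all genes, and 2 rose, which is 13.3% beside 17.6%. The median log2 fold change was -0.34. With the replicate block 9 fell and 3 rose, where 22.1% of all genes fell and 20.7% rose. ATF3 and PPP1R15A were added to the lower and PSAT1 to the higher genes. ATF4 had 113, 118 and 95.3 CPM in Set7KD and 176, 172 and 152 CPM in NTC (edgeR adjusted p = 8.41e-05). CHAC1, a glutathione-degrading enzyme, fell at a log2 fold change of -1.38 (edgeR adjusted p = 4.29e-05) and SLC7A11, the cystine transporter, at -1.01 (edgeR adjusted p = 0.000415). The part of this response in the values of GDF15 and PMAIP1 was not tested.

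**Figure D4:**
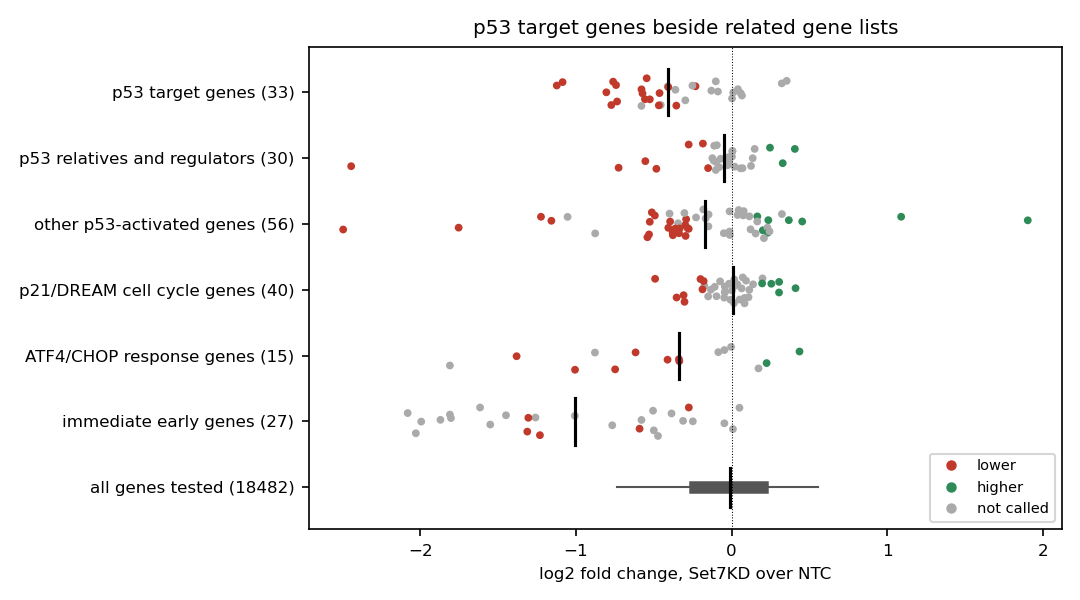
Log2 fold change, Set7KD over NTC, of the 33 p53 target genes and of related lists, with 1 point per tested gene coloured by its edgeR call and a black line at each median. The bottom row gives all 18482 genes tested, as a thick bar between the quartiles and a thin line from percentile 5 to percentile 95; the p53 target genes have their median at -0.41 and the all-gene median is at -0.01.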

How the data were processed

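Gene read counts were deposited by the authors as 1 table of whole numbers without normalization, with versioned Ensembl identifiers and symbols. Per the submitters' processing notes, BWA, bedtools and the genome build hg19 were used; versions, strand and the handling of reads with several matches are not given in the sources used here. Per the labels' protocols, RNA was extracted with an RNeasy kit, selected for poly-A and made into Illumina mRNA-seq libraries. A final row naming no gene took 55.6 to 56.1% of each library's counts and was left out. Gene counts were 16385878 to 16953331 per library, so that 1 count was worth 0.0585 to 0.0618 CPM.

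The test was edgeR 4.0.16 under R 4.3.3 (filterByExpr, TMM, glmQLFit with robust estimation, glmQLFTest, group as the single factor) over 18482 genes, with Benjamini-Hochberg adjustment and a threshold of 0.05. The standard error is the absolute log2 fold change over the square root of F. An exact two-sided permutation test of 3 libraries against 3 cannot go below p = 0.1 and was not used for calls. Pairs of libraries of 1 group differed by more than sampling noise, with a chi-square over degrees of freedom of at least 2.98.

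Deviations from the group means, over 11151 genes with at least 10 CPM, gave r of 0.302, 0.419 and 0.34 for same-numbered pairs. This passed the rule of over 0.1 in every pair, so a fit with the number as a block is given beside the members and list counts whose calls it changes. The pairing comes from the data, not from a label.

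The members, their roles and the comparison lists were chosen with earlier results of these data known. Of 195 distinct genes in the lists, 183 had a row; some genes are not reported here. All 33 members were accounted for, and up to 4 tested genes with the smallest p were named per list. Alternatives were RLE and upper-quartile normalization, no filter, a minimum of 50 counts throughout a group, the block, DESeq2 1.42.0, limma-voom (limma 3.58.1), an adjusted p under 0.01, a minimum fold of 1.2, and leaving out single libraries or both libraries of a number. Exon overlaps came from GENCODE 29, which is on a later build than the counts, by Ensembl identifier. Promoters were scanned with Python 3.11.15.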

Additional observations from a re-analysis of the deposited data

How the results depend on the processing

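The median log2 fold change of the p53 target genes stayed between -0.53 and -0.32 under all 18 alternatives, and none of the 17 genes called lower changed direction. The calls of PHLDA3, SPATA18 and GDF15 were kept under every alternative. The number of p53 target genes called lower was 9 at an adjusted p under 0.01 and 7 against a minimum fold of 1.2. It was 11 to 23 with single libraries left out, and 4, 16 and 23 without both libraries of replicate 1, 2 or 3; the 4 were BAX, PHLDA3, SPATA18 and GDF15. The number called higher was 0 to 2 with libraries left out and 2 with the replicate block, DESeq2 or limma-voom. The block changed no call among the 33 genes beyond those given beside the results.

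Among all genes, 2197 were lower and 2103 higher at an adjusted p under 0.01, and 1314 and 903 against a fold of 1.2. With libraries left out these counts ran from 1562 to 3303 lower and from 1414 to 3214 higher, the lowest without both replicate 1 libraries. Of the relatives and regulators of p53, 4, SETD7 among them, were lower and 1 higher against a fold of 1.2. Of the other p53-activated genes, 7 were lower and 2 higher against that fold, 4 were higher at an adjusted p under 0.01, and 17 to 26 were lower and 4 to 9 higher with single libraries left out, and 8, 20 and 24 lower and 2, 10 and 7 higher without both libraries of replicate 1, 2 or 3. Fewer calls follow by construction from a stricter threshold; the cause of the other differences was not tested.

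The genes that changed sign were near 0 and not called. With single libraries left out, the log2 fold change ran from -0.100 to 0.125 for PPM1D, from -0.122 to 0.107 for TP53I3, from -0.0470 to 0.133 for RPS27L and from -0.0038 to 0.138 for BLOC1S2. The value was below 0 without Set7KD replicate 2 for PPM1D (-0.0729) and TP53I3 (-0.0575), without NTC replicate 1 for PPM1D (-0.0090), and without NTC replicate 3 for all 4. Without both replicate 3 libraries it was -0.0404 for PPM1D, -0.0406 for TP53I3 and -0.0072 for RPS27L. With 3 libraries a group, differences of the order of the standard errors given could not be detected.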
